A study of Mus musculus with 113 samples.

Results

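The genes of cholesterol and fatty acid synthesis were followed through neural differentiation of mouse embryonic stem cells (mESCs) in 4 gene expression tables. They were chosen by their symbols. The 32 symbols stand for 30 genes, since *Sc4mol* and *Msmo1* name the same gene, as do *Sc5d* and *Sc5dl*. Of the 30 genes, 29 stood among the 13541 genes of the SFEB populations, 29 among the 13738 genes of the adherent monoculture, 29 among the 11449 genes of the SFEB single cells, and all 30 among the 23107 genes of the E14 table. *Hmgcs1* was analysed in the E14 table only. Every one of these genes reached at least 1 FPKM (fragments per kilobase of transcript and per mapped read total) in at least 3 samples of each population table, the limit set for testing.

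R1 mESCs were sampled at 0 h and during 2 ways of neural induction without serum. In SFEB culture (floating embryoid body-like aggregates in GKSR medium), a first series of 14 populations ran from 0 to 142 h, and 8 parallel populations from 0 to 216 h were matched by 8 hand-picked single cells at each of 8 time points. In the adherent monoculture, cells lay in N2B27 medium on gelatin, and 15 populations ran from 0 to 216 h. On day 6 both cultures were replated onto PDL/laminin/fibronectin, the SFEB cells in GMEM-N2 medium. A second mESC line, E14, was sampled at days 0 and 4 of neural induction as WT and as *Fyn* KO, with 3 libraries in each of the 4 groups. The KO is 1 clone with a CRISPR/Cas9 deletion that takes the start codon of *Fyn*, a Src family kinase, and which induction protocol the E14 cells received is not stated in the sources used here. No allele or agent beyond these was given for any group. Nothing states that the E14 replicates were separate cultures, so their p-values measure the spread between libraries, which may be technical. Each population time point is 1 library, and read depth is unknown because the files hold FPKM.

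Cholesterol is built from cytosolic acetyl-CoA. The mevalonate genes make isoprenoid units and farnesyl diphosphate, the sterol genes join them to squalene, close the lanosterol rings and trim lanosterol to cholesterol. Fatty acid synthesis starts from the same acetyl-CoA, supplied by *Acly*, and goes through *Acaca* and *Fasn* to elongation (*Elovl6*) and desaturation (*Scd1*, *Scd2*, *Fads1*, *Fads2*). Transcription of most of these genes is driven by the SREBP factors encoded by *Srebf1* and *Srebf2*, which *Insig1* holds in the endoplasmic reticulum when sterols are plentiful. Proliferating cells need both products for membranes, and the brain makes its own cholesterol.

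The summed FPKM of a naive pluripotency list was 591 and 731 in the 0 h SFEB populations, 22.4 at 142 h in the first series, and 154 at 144 h and 55.5 at 216 h in the parallel populations. In the adherent course it went from 590 at 0 h to 38.6 at 216 h. A list of 8 fibroblast genes, all present in the table, summed to 634 to 1349 FPKM in the 6 SFEB populations before 22 h and to 49.7 to 319 in the 16 later ones, and to between 645 at 0 h and 81.9 at 125.5 h in the adherent course. In E14 cells it summed to 99.4 to 309 FPKM at day 0 and to 35.8 to 150.0 at day 4. The R1 cells had been passaged once without feeders before induction, and where the fibroblast signal came from was not tested. It moved with time in each table, and its part in the trends was not tested. In bulk samples, fewer cells of a type and less RNA per cell cannot be told apart. Among the SFEB populations, the parallel 216 h and 144 h ones resembled their closest library least, with Pearson r of 0.963 and 0.976. The SFEB 2 h population came next, with 0.979. In the adherent course the 144 h and 216 h populations resembled theirs least, with 0.967 and 0.974. *Fyn* stood at 2.74 to 4.00 FPKM in WT at day 0, at 4.54 to 9.44 in WT at day 4 and at 0.598 to 1.58 in the 6 KO libraries.

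In SFEB culture the synthesis genes rose with time. All SFEB population values are FPKM after a batch adjustment (ComBat) whose batches are not stated, while the adherent and E14 values were not so adjusted. Of the 29 genes, 21 rose and 0 fell along a linear time trend (limma on log2(FPKM + 1), adjusted p under 0.05, 1 term for the series). Among all 13363 genes tested 35.5% rose and 27.4% fell. The median slope was 0.10 per 24 h on the log2 scale for the synthesis genes and 0.01 for all genes. Those that rose were 5 of 6 mevalonate genes, 8 of 11 sterol genes, 6 of 8 fatty acid genes, and *Srebf2* and *Stard4* among the 4 regulators and carriers. *Pmvk* was the least firm of them and passed in 5 of 11 alternative settings, while each of the others passed in 9 to 11. Since each time point is 1 library, these tests measure spread about a fitted line, and neighbouring times may not be independent.

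The steepest sterol gene was *Tm7sf2*, a sterol reductase of the step after *Cyp51*. Its levels over the 22 populations had a minimum of 3.91 FPKM at 8 h, a median of 9.39 and a maximum of 33.8 at 216 h. The slope was 0.27 ± 0.03 (SE) per 24 h, with an adjusted p of 2.41e-08. *Nsdhl*, which removes the methyl groups of lanosterol together with *Sc4mol*, went from 6.66 FPKM at 2 h over a median of 20.2 to 56.5 at 216 h (slope 0.23 ± 0.03 per 24 h). *Cyp51*, the lanosterol demethylase and first enzyme of that trimming, ran from 15.4 FPKM at 8 h over a median of 36.1 to 78.3 at 216 h (slope 0.18 ± 0.03 per 24 h). Both therefore had their lowest population in the first hours and their highest at the end. *Sc4mol*, the methyl oxidase, and *Hsd17b7*, the ketoreductase that works after it, each rose by 0.17 per 24 h, *Sc5d* by 0.16 and *Dhcr7* by 0.09.

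Of the 3 enzymes that lead to lanosterol, *Fdft1* and *Lss* did not pass as lines. *Fdft1*, the squalene synthase that commits farnesyl diphosphate to sterols, had a slope of 0.04 ± 0.02 per 24 h (adjusted p = 0.188). *Lss*, which closes the lanosterol rings, had a slope of 0.05 ± 0.03 (adjusted p = 0.137). Both passed as a course of any shape (natural spline of time). *Sqle*, the squalene epoxidase and an oxygen-consuming control point of the route, did rise, by 0.15 ± 0.04 per 24 h. It stood at 25.0 and 31.3 FPKM in the 0 h populations, at 74.5 by 42.5 h and at 93.2 at 216 h.

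*Ebp*, a sterol isomerase, was the exception among the sterol genes. It ranged from 8.55 FPKM at 42.5 h, over a median of 14.2, to 20.6 at 2 h, and stood lowest at a time when *Cyp51* and *Sqle* had already climbed. Its slope was -0.01 ± 0.03 per 24 h (adjusted p = 0.761), while the spline test gave an adjusted p of 0.0135.

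Among the mevalonate genes, *Acat2*, the thiolase that makes acetoacetyl-CoA, climbed most steadily, from 26.8 FPKM at 8 h over a median of 44.1 to 97.4 at 216 h (slope 0.19 ± 0.02 per 24 h, adjusted p = 1.79e-08). *Fdps*, the farnesyl diphosphate synthase, instead peaked in the middle of the course. It stood at 91.5 and 92.3 FPKM at 0 h, at 152 at 2 h, at 186 at 68 h, at 78.0 at 142 h and at 169 at 216 h. Its slope was 0.01 ± 0.04 per 24 h (adjusted p = 0.805), and its spline test gave an adjusted p of 0.000752. *Mvk*, *Pmvk*, *Mvd* and *Idi1*, which carry mevalonate to isopentenyl and dimethylallyl diphosphate, rose by 0.07 to 0.10 per 24 h.

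Among the fatty acid genes, both desaturases of the polyunsaturated fatty acids rose steeply: *Fads2* went from 16.97 FPKM at 2 h over a median of 71.2 to 159 at 216 h (slope 0.24 ± 0.05 per 24 h), and *Fads1* from 15.4 at 2 h over a median of 35.9 to 102 at 216 h (slope 0.24 ± 0.02). *Scd2*, the main stearoyl-CoA desaturase of brain, stood at 121 and 128 FPKM at 0 h, between 64.7 and 87.5 from 8 to 34 h, and at 362 at 216 h. Its neighbour *Scd1* rose by 0.13 per 24 h, and *Acly* and *Acaca*, which supply acetyl-CoA and malonyl-CoA, by 0.09 and 0.10. *Fasn*, the fatty acid synthase, peaked at 200.1 FPKM at 60 h and was back at 88.5 at 142 h and 111 at 216 h. *Fasn* and *Elovl6*, which lengthens the palmitate that *Fasn* makes, did not pass as lines (slopes 0.07 ± 0.05 and 0.01 ± 0.02, adjusted p = 0.2 and 0.82), and both passed as courses of any shape. Over all 29 genes 27 passed that spline test, against 87.9% of all genes tested. *Pmvk* and *Srebf1* did not, with adjusted p of 0.0886 and 0.424.

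Among the regulators, *Srebf2*, whose product favours the sterol genes, rose from a minimum of 36.1 FPKM at 2 h to 104 at 216 h (slope 0.11 ± 0.02 per 24 h). *Srebf1*, whose product favours the fatty acid genes, ranged from 17.1 FPKM at 142 h to 33.9 at 60 h (slope -0.03 ± 0.02, adjusted p = 0.267). *Insig1*, itself an SREBP target, had a slope of 0.02 ± 0.03 (adjusted p = 0.62). *Stard4*, a carrier of cholesterol between membranes, rose by 0.11 ± 0.03 per 24 h.

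**Figure D1:**
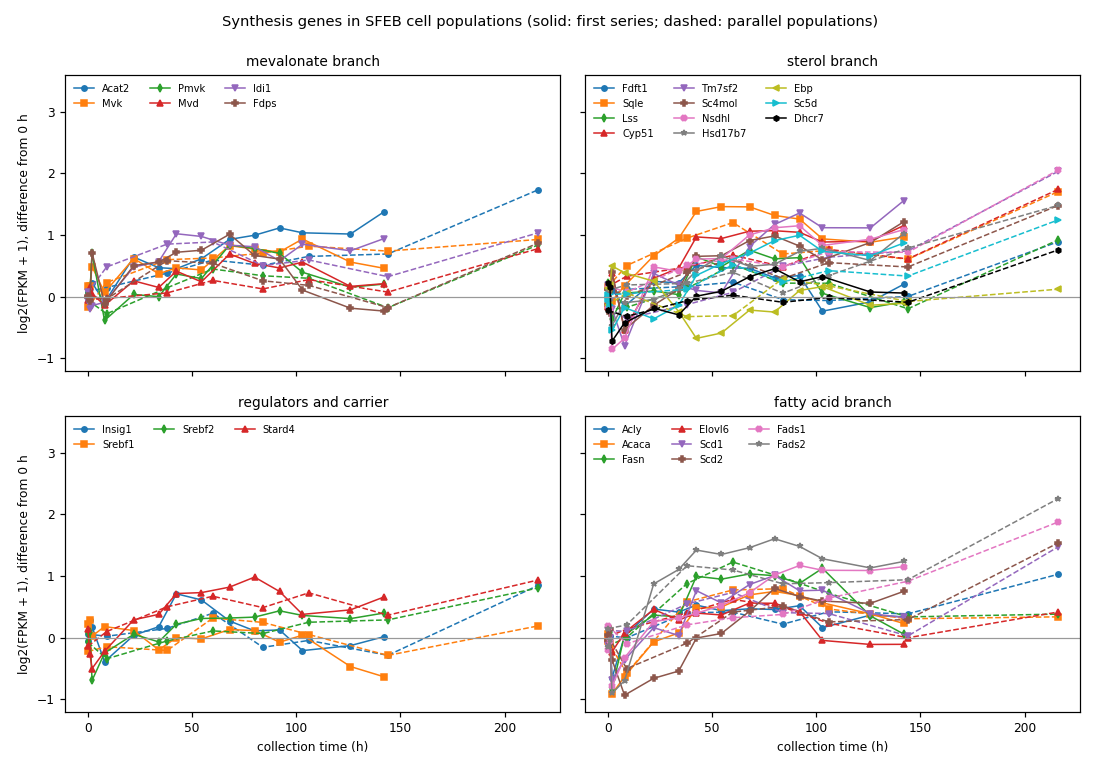
Change of each synthesis gene from its mean at 0 h, as log2(FPKM + 1), against collection time in h in the SFEB populations. Each point is 1 library, solid lines join the first series and dashed lines the parallel populations, and each panel is 1 group of genes. At 216 h all 29 genes lie above 0 h, while at 2 h 11 of 29 do.

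The early hours carried much of the linear trend. At 2 h all 8 fatty acid genes were below their 0 h mean, by 0.23 to 0.91 on the log2 scale, and 14 of the 29 genes had their lowest value of the course in that library, against 18.2% of all genes. Without the 2 h population 21 genes rose, against 35.8% of all genes. Without all populations before 22 h, those with the highest fibroblast sums, 12 of the 21 kept their rise (*Acat2*, *Cyp51*, *Tm7sf2*, *Sc4mol*, *Nsdhl*, *Hsd17b7*, *Sc5d*, *Dhcr7*, *Srebf2*, *Scd2*, *Fads1* and *Fads2*). In that fit 40.5% of all genes rose, so 12 of 29 is near the share of all genes and the excess of the full course was not seen. *Elovl6* fell in that fit, with a slope of -0.06 and an adjusted p of 0.0397, and the slope of *Acaca* was -0.01. Both settings were chosen after the data were seen. Fitted alone, each series gave 17 rising genes, against 30.4% of all genes in the first series and 26% in the parallel populations, and *Srebf1* fell in the first series.

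The first hours after the switch of medium were read from single libraries. Between 0 h and 8 to 9 h, 0 of 29 genes reached a 2-fold ratio of FPKM + 1 in either direction in the first SFEB series, the parallel SFEB populations or the adherent monoculture. Of all genes tested, 1.06% were past 2-fold higher and 2.27% lower in the first series, 0.614% and 3.05% in the parallel populations, and 2.59% and 0.474% in the adherent cells. The median ratio of the synthesis genes was 0.894, 1.01 and 1.07. Nearest to the limit were *Tm7sf2* in the first SFEB series, with a ratio of 0.505, and *Idi1* in the adherent cells, with 1.94. With so few genes past the limit in each table, a count of 0 among 29 is near the background. There is no test.

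Between 144 and 216 h, the span after replating, 12 of 29 genes were at least 2-fold higher in SFEB culture and 0 were 2-fold lower, against 6.94% and 3.3% of all genes. The median ratio was 1.88 for the synthesis genes and 1.00 for all genes. *Scd1* went from 23.9 to 66.8 FPKM, *Nsdhl* from 21.8 to 56.5 and *Tm7sf2* from 13.3 to 33.8. *Fasn* and *Acaca*, by contrast, stood at 108 and 23.9 FPKM at 144 h and at 111 and 24.5 at 216 h. *Acly* lay between, with 157 and 246 FPKM. There is 1 library at each time. Over the same span the naive pluripotency list went from 154 to 55.5 FPKM and the neuron list from 326 to 868, and their part in the increase was not tested. At 216 h, on the per-length scale of FPKM, the highest levels were those of *Scd2* (362 FPKM), *Acly* (246), *Fdps* (169), *Fads2* (159) and *Sc4mol* (155), and the lowest those of *Ebp* (15.6) and *Hsd17b7* (16.7).

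In the adherent monoculture, a table normalized apart from the SFEB table, 20 of 29 genes rose and 0 fell along a linear trend. Of all 12879 genes tested 35.8% rose and 24% fell. The median slope was 0.11 per 24 h for the synthesis genes and 0.02 for all genes. The genes that rose were 3 of 6 mevalonate genes, 9 of 11 sterol genes, *Insig1*, *Srebf2* and *Stard4* among the regulators and carrier, and 5 of 8 fatty acid genes. The spline test passed 22 genes, against 70.7% of all genes.

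*Scd2* and *Fads1* had the steepest slopes here. *Scd2* rose from its minimum of 61.4 FPKM at 0 h, over a median of 157, to 423 at 216 h (slope 0.29 ± 0.05 per 24 h, adjusted p = 0.000166). *Fads1* went from 25.7 FPKM at 2.5 h over a median of 49.6 to 114 at 216 h (slope 0.24 ± 0.02, adjusted p = 3.45e-07). Among the sterol genes the steepest were *Sc4mol* (0.21 ± 0.04) and *Cyp51* (0.20 ± 0.03), and *Stard4* rose by 0.18 ± 0.04. *Ebp* again ran apart, from 22.2 FPKM at 20.5 h down to 10.5 at 68.5 h and 17.03 at 216 h (slope -0.02 ± 0.03, adjusted p = 0.539).

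A few courses turned on single adherent libraries. *Fasn* stood at 228 FPKM at 140.5 h, at 56.7 at 144 h and at 172 at 216 h, and *Acaca* at 33.8, 13.3 and 30.8. *Mvk* and *Srebf1* also had their lowest value at 144 h. In that library the mesoderm and endoderm list summed to 66.5 FPKM, the highest of the 15, and 10.4 at 140.5 h, and its part in these lows was not tested. Without the 144 h library 23 genes rose, with *Fasn*, *Acaca* and *Lss* added, against 34.2% of all genes. *Idi1* (22.2 and 15.1 FPKM) and *Elovl6* (18.4 and 8.26) dipped at 35.5 and 41.5 h, between 61.6 and 32.5 FPKM at 20.5 h and 52.9 and 39.6 at 53.5 h. Without those libraries 20 genes rose, against 35.2% of all genes. Without the 3 libraries before 20.5 h, 13 rose, all among the 20, and *Fads2*, *Scd1*, *Tm7sf2*, *Mvd*, *Pmvk*, *Fdft1* and *Insig1* no longer passed. Of all genes 33.7% rose in that fit. These settings were also chosen after the data were seen.

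**Figure D2:**
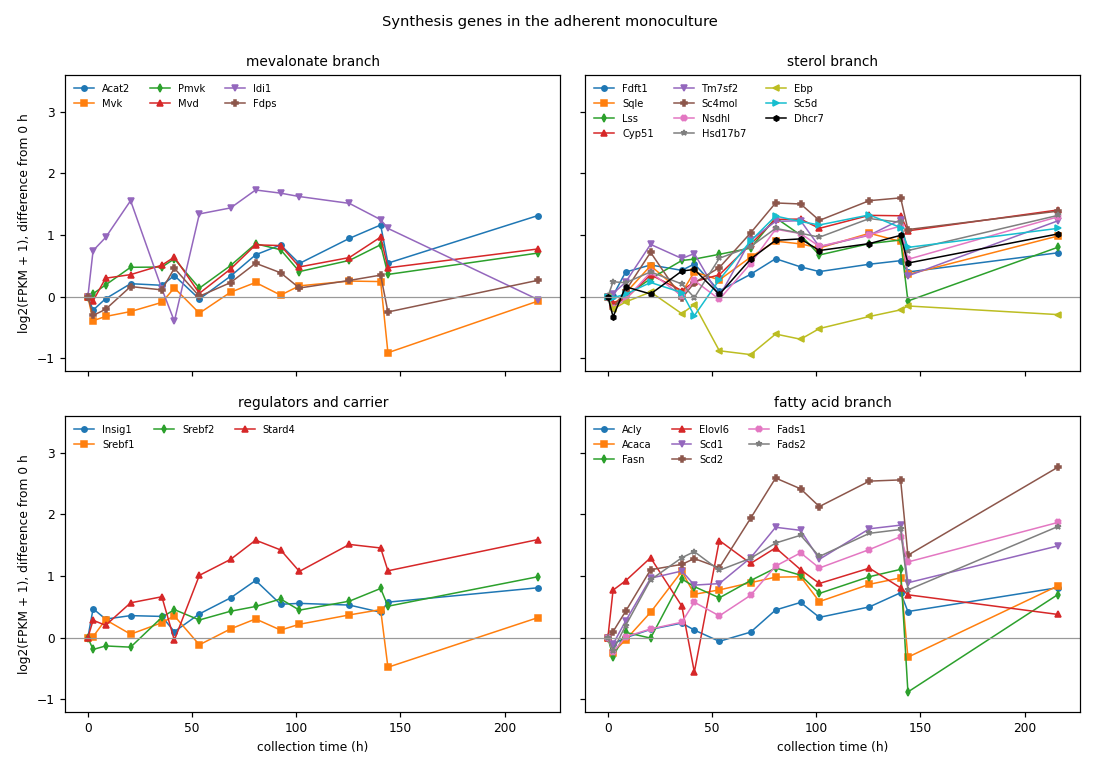
Change of each synthesis gene from 0 h, as log2(FPKM + 1), against collection time in h in the adherent monoculture. Each point is 1 library and each panel 1 group of genes. *Scd2* reaches 2.76 above 0 h at 216 h, and the drop of *Fasn*, *Acaca* and *Mvk* at 144 h is carried by 1 library.

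After the 144 h low, 4 of 29 genes were at least 2-fold higher at 216 h (*Acaca*, *Fasn*, *Scd2* and *Fads2*), against 3.23% of all genes. *Idi1* was 2-fold lower, with 44.8 FPKM at 144 h and 19.6 at 216 h, against 5.5% of all genes. The median ratio of the synthesis genes was 1.43, and that of all genes 0.972.

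Most sterol genes varied together within each table. Over the 22 SFEB, 15 adherent and 12 E14 samples, the Pearson correlation of a gene with the mean of the mevalonate and sterol genes had a median of 0.838, 0.907 and 0.823 among the 11 sterol genes. Over all genes tested the median was 0.0574, 0.218 and 0.134, and the 95th percentile 0.749, 0.847 and 0.788. In the E14 table *Tm7sf2* and *Hsd17b7* had lower values, 0.27 and 0.42. *Ebp* was the lowest in each table, with r of -0.38, -0.39 and -0.66. *Srebf1* had r of -0.06, 0.43 and -0.24, and *Srebf2* had 0.84, 0.80 and 0.49. The samples of a table share a time course or a day effect, so these values describe common movement and carry no test.

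The promoters of the synthesis genes were read, *Ebp* and *Srebf1* among them, for motifs of factors known to act on them. RefSeq promoter windows (GRCm38.p6) were matched for 23 of the 30 symbols, and *Fdps*, *Fdft1*, *Sqle*, *Stard4*, *Scd1*, *Scd2* and *Fads1* had no entry. In the 250 bases before the start, on either strand, CCAAT (bound by NF-Y) stood in 18 of 23 genes, or 78.3%, and in 37.5% of all 27025 genes with a window. GGGCGG (bound by Sp1) stood in 19 of 23 genes, or 82.6%, and in 35.4% of all. TCACNCCAC, the core of the sterol regulatory element, was found in *Hmgcs1* alone and in 1.22% of all genes. A gene counted if any of its windows matched. The shares of all genes were not limited to expressed genes, while every synthesis gene passed the expression limit for testing, so the sets compared are unlike. The stretches shown are the 200 bases before the start of 3 sterol genes and 2 mevalonate genes that carry CCAAT, and of *Fads2*, the gene with the largest change at day 4, whose window held GGGCGG and neither CCAAT nor TCACNCCAC. Capitals mark CCAAT, its reverse complement ATTGG and the TCACNCCAC match. Each motif was counted on its own, overlaps allowed, and a match describes letters, not a bound site.
Hmgcs1 (chr13:119690151-119690350, + strand): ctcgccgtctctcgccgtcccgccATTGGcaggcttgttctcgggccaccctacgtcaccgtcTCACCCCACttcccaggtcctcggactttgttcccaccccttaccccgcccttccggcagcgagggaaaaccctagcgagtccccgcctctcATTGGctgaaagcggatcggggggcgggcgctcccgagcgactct
Idi1 (chr13:8885406-8885605, + strand): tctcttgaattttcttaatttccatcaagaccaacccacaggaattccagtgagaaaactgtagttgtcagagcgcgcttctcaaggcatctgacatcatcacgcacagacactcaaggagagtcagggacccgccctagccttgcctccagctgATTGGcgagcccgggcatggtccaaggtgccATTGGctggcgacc
Lss (chr10:76531405-76531604, + strand): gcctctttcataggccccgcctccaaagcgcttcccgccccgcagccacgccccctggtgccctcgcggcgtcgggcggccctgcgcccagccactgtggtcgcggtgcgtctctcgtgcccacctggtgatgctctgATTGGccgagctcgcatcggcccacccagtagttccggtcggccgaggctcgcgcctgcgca
Sc4mol, listed as Msmo1 (chr8:64733579-64733778, - strand): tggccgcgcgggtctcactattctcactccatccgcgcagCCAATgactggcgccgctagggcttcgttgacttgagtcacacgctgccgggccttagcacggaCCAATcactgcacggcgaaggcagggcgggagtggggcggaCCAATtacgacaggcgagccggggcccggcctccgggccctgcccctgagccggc
Cyp51 (chr5:4104698-4104897, - strand): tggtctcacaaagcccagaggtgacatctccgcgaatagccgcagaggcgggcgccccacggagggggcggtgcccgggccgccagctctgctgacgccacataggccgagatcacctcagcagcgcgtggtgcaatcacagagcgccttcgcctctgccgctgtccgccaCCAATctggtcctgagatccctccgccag
Fads2 (chr19:10101504-10101703, - strand): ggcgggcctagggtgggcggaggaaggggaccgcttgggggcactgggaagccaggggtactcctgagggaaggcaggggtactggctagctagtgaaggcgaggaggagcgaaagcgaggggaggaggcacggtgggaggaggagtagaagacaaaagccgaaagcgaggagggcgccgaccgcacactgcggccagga
The E14 files were mapped to mm10, the UCSC name of this build, and the SFEB and adherent files to mm9, so these coordinates belong to the E14 data only.

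In WT E14 cells, where replicates allow a test between days, 6 of 11 sterol genes and the desaturases *Fads1* and *Fads2* rose from day 0 to day 4, while *Ebp* fell and *Scd1* and *Scd2* did not pass. Of the 30 genes 11 rose and 1 fell (limma, adjusted p under 0.05), against 15.5% and 10.3% of all 12257 genes tested. The median log2 fold change was 0.62 for the synthesis genes and 0.08 for all genes. The genes that rose were 2 of 7 mevalonate genes, 6 of 11 sterol genes and 3 of 8 fatty acid genes, and none of the 4 regulators and carriers passed. With the replicate number as a block, 17 genes rose, all 11 among them, together with *Acat2*, *Hmgcs1*, *Idi1*, *Pmvk*, *Sqle* and *Stard4*, against 17.5% of all genes.

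*Fads2*, the first desaturase of polyunsaturated fatty acid synthesis, changed most. It stood at 16.3, 11.5 and 22.3 FPKM at day 0 and at 71.7, 44.0 and 74.8 at day 4 in replicates 1, 2 and 3, with no overlap. The log2 fold change was 1.87 ± 0.26 (SE, adjusted p = 0.000703). Its partner *Fads1* went from 14.9, 14.3 and 23.2 FPKM to 39.2, 26.3 and 40.2 (0.98 ± 0.22, adjusted p = 0.00866), also without overlap.

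*Cyp51* stood at 10.7, 7.19 and 10.4 FPKM at day 0 and at 28.5, 17.8 and 23.7 at day 4 (log2 fold change 1.22 ± 0.24, adjusted p = 0.00464). *Dhcr7*, a last reductase before cholesterol, went from 10.8, 7.50 and 10.6 FPKM to 23.4, 16.9 and 27.0 (1.13 ± 0.26, adjusted p = 0.00997). In both genes every day 4 library was above every day 0 library. *Sc5d*, the desaturase just before *Dhcr7*, rose by 1.08 ± 0.24 and *Lss* by 0.93 ± 0.21. These 6 genes, *Fads2*, *Fads1*, *Cyp51*, *Dhcr7*, *Sc5d* and *Lss*, kept their rise in each of the 6 fits that left out 1 WT library.

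The other rises were smaller or leaned on single libraries. *Sc4mol*, *Nsdhl*, *Fdps*, *Acaca* and *Mvd* rose by 0.66 to 0.85 on the log2 scale and passed in 1 or 2 of those 6 fits. *Hmgcs1*, the enzyme that makes HMG-CoA, stood at 53.3, 36.4 and 51.0 FPKM at day 0 and at 129, 47.2 and 115 at day 4, so replicate 2 of day 4 overlapped day 0. Its log2 fold change was 0.93 ± 0.33 (adjusted p = 0.0571). *Ebp* fell, from 16.9, 16.5 and 17.3 FPKM to 6.79, 6.47 and 11.3 (-0.9998 ± 0.30, adjusted p = 0.0324), and kept the call in 1 of the 6 fits. In the KO it stood at 23.4, 27.3 and 10.4 FPKM at day 0 and at 7.82, 10.9 and 9.60 at day 4 (-0.94 ± 0.30, adjusted p = 0.0508), the third day 0 library being at the day 4 level. That library also had the lowest fibroblast sum at day 0, 99.4 FPKM, and the highest epiblast sum, 64.9. Without it *Ebp* fell in the KO as well.

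Replicate 2 of WT at day 4 stood closest to day 0. Its naive pluripotency list summed to 362 FPKM, against 89.6 and 179 in replicates 1 and 3 and 919 to 998 at day 0, and its neural progenitor list to 14.2 against 91.7 and 29.1. Without that library 19 genes rose, all 11 among them, against 13.8% of all genes. The number was 6 without WT day 4 replicate 1 (11.5% of all genes), WT day 4 replicate 3 (10.6%) or WT day 0 replicate 2 (9.1%), and 7 without WT day 0 replicate 1 (12.9%). Of the 30 genes, 10 had all day 4 libraries above all day 0 libraries and 2 (*Ebp* and *Elovl6*) had them all below, against 25.8% and 16.4% of all genes.

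In *Fyn* KO E14 cells 9 of 30 genes rose and 0 fell between day 0 and day 4, against 11.8% and 7.56% of all genes. The median log2 fold change was 0.41, and 0.05 for all genes. They were 4 of 7 mevalonate genes (*Hmgcs1*, *Mvd*, *Idi1*, *Fdps*), 4 of 11 sterol genes (*Fdft1*, *Cyp51*, *Sc4mol*, *Dhcr7*) and *Fads2*. *Fads2* went from 16.8, 10.7 and 15.1 FPKM to 71.1, 63.0 and 57.4 (2.11 ± 0.26, adjusted p = 0.000503), and *Dhcr7* from 9.65, 5.29 and 12.5 to 22.3, 22.7 and 24.9 (1.33 ± 0.26, adjusted p = 0.00598). Neither overlapped.

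*Hmgcs1* in the KO stood at 48.0, 32.7 and 43.7 FPKM at day 0 and at 122, 89.6 and 81.7 at day 4 (1.22 ± 0.33, adjusted p = 0.0243). *Fads2*, *Dhcr7* and *Sc4mol* kept their rise in each of the 6 fits without 1 KO library. The number of rising genes was 3 without KO day 0 replicate 2 (5.22% of all genes), KO day 4 replicate 1 (9.98%, the members' own share being near it) or KO day 4 replicate 3 (5.35%). It was 5 without KO day 0 replicate 1 (6.43%) or KO day 4 replicate 2 (8.44%). In KO day 4 replicate 2 the naive pluripotency list summed to 356 FPKM, against 127 and 153 in replicates 1 and 3. Of the 30 genes 15 did not overlap upward and 4 downward, against 21.9% and 16.8% of all genes.

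**Figure D3:**
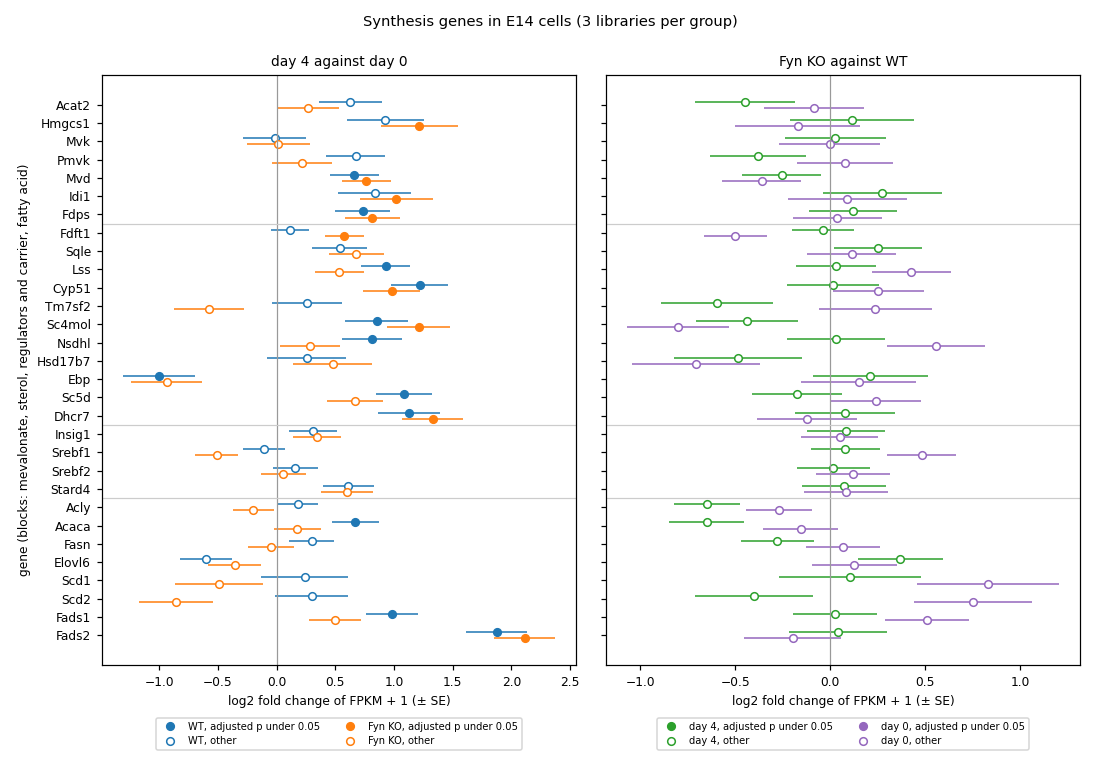
Log2 fold changes of FPKM + 1 in E14 cells with their SE for the 30 synthesis genes, day 4 against day 0 (left, WT and *Fyn* KO) and *Fyn* KO against WT (right, days 4 and 0), 3 libraries per group. Filled points pass an adjusted p of 0.05. *Fads2* lies farthest to the right in both genotypes, and no point on the right side is filled.

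Loss of *Fyn* was compared with WT at each day, in libraries that the day comparisons share. At day 4, 0 of 30 genes differed (limma, adjusted p under 0.05), against 0.00816% of all genes higher and 0.0653% lower, and 2 genes had an unadjusted p under 0.05, against 12.1% of all genes, so fewer than the background. These were *Acly* and *Acaca*, and both were lower in all 3 KO libraries than in any WT library. *Acly* stood at 104, 76.2 and 115 FPKM in WT and at 62.6, 64.8 and 57.0 in the KO (log2 difference -0.65, 95% interval -1.03 to -0.27, adjusted p = 0.168). *Acaca* stood at 23.0, 17.5 and 19.5 FPKM in WT and at 12.1, 14.1 and 10.98 in the KO (-0.65, interval -1.08 to -0.22, adjusted p = 0.223). Higher and lower without overlap were 0 and 2 of the 30 genes, against 6.54% and 9.99% of all genes. For *Fads2* the interval of the difference was -0.52 to 0.60, for *Cyp51* -0.51 to 0.54 and for *Hmgcs1* -0.60 to 0.83.

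At day 0, 0 of 30 genes differed, against 0.0408% higher and 0.131% lower among all genes, and 6 had an unadjusted p under 0.05, 4 higher and 2 lower in the KO, against 14.6% of all genes. *Scd2* stood at 53.5, 63.5 and 105 FPKM in WT and at 150, 106 and 109 in the KO (0.75 ± 0.31, adjusted p = 0.298). At day 4 it stood at 133, 53.3 and 94.9 in WT and at 71.5, 69.4 and 58.0 in the KO, so WT and KO overlapped. The day effect in the KO minus that in WT was -1.16 for *Scd2* (interval -2.12 to -0.19, adjusted p = 0.997), the 1 synthesis gene with an unadjusted p under 0.05 for that difference. No gene among the 30, and 0 of all genes, passed the adjusted threshold, with 537 of 12257 at an unadjusted p under 0.05. Without overlap, 4 genes were higher and 4 lower in the KO at day 0, against 10.5% and 10.9% of all genes.

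**Figure D4:**
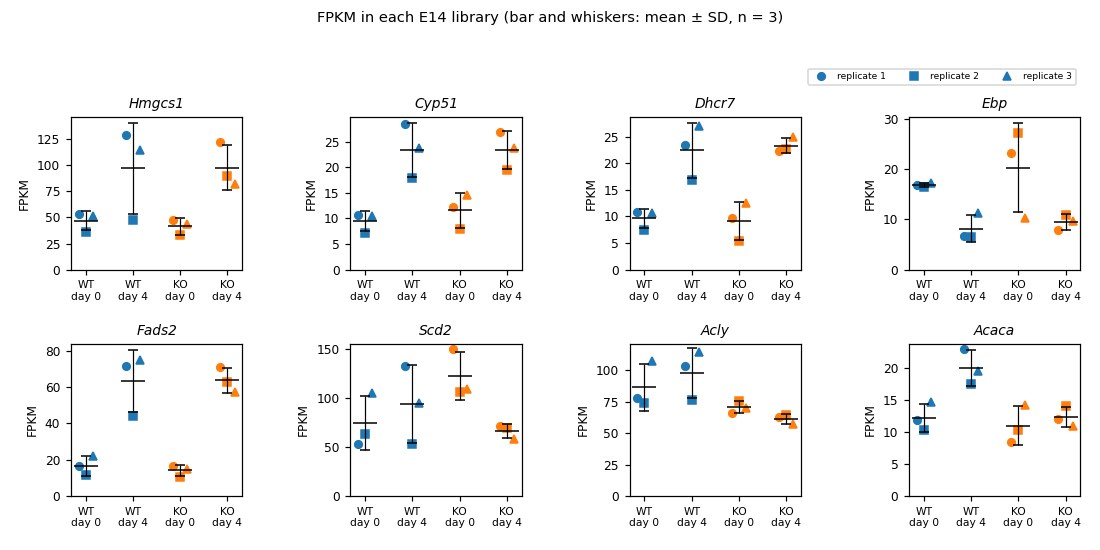
FPKM of 8 synthesis genes in each of the 12 E14 libraries, with the mean and SD of each group (n = 3) as bar and whiskers and the replicate number as symbol. *Fads2*, *Cyp51* and *Dhcr7* separate day 4 from day 0 in both genotypes, and *Acly* and *Acaca* are lower in the KO than in WT at day 4 in all 3 libraries.

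In SFEB single cells the same genes were spread widely from cell to cell, and few trends passed. Over the means of 8 cells at 8 time points, 2 of 29 genes rose and 0 fell (limma on log10(RPKM + 1), adjusted p under 0.05), against 1.67% and 1.07% of all 11449 genes. *Sc4mol* had means of 0.764 ± 0.533 (SD, 8 cells) at 0 h, 0.108 ± 0.221 at 9 h, 1.15 ± 0.651 at 84 h and 1.80 ± 0.400 at 216 h. Its slope was 0.16 ± 0.04 per 24 h (adjusted p = 0.0141). *Acat2* had means of 0.5264 ± 0.244 at 0 h, 1.31 ± 0.772 at 84 h and 1.85 ± 0.669 at 216 h (slope 0.13 ± 0.03, adjusted p = 0.0291). Neither passed without the 216 h cells, without the 9 h cells, or with medians or the log10 of the mean in place of the mean.

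From 0 to 9 h the single-cell means went both ways, lower in 18 of 29 genes and higher in 11, against 52% and 46.8% of all 11449 genes. *Mvd* had means of 1.28 ± 0.683 at 0 h and 2.16 ± 0.663 at 9 h, and *Dhcr7* 0.280 ± 0.354 and 0.856 ± 0.608. *Scd2* had 1.55 ± 0.623 and 0.564 ± 0.622. *Sc4mol* was above 0 in 3 of 8 cells, *Fads1* in 2 of 8 and *Stard4* in 0 of 8, against 8, 8 and 6 of 8 at 0 h. The median number of genes above 0 was 6927 per cell at 9 h and 8972 at 0 h, and its part in these lows was not tested. *Scd2* (slope 0.13 ± 0.04, adjusted p = 0.0534) and *Fads1* (0.12 ± 0.04, adjusted p = 0.0633) both passed when the cell of replicate 16 at 216 h was left out. The authors describe that cell as an outlier still at the starting stage, and the other 216 h values given here include it.

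**Figure D5:**
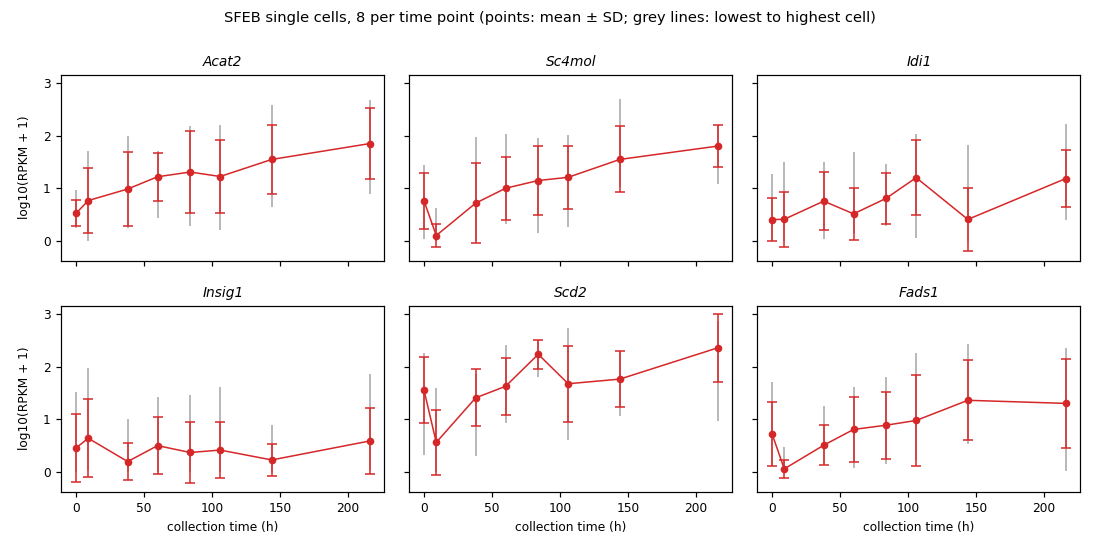
Deposited log10(RPKM + 1) of 6 synthesis genes in SFEB single cells against collection time in h. Points and whiskers give the mean and SD of 8 cells, and grey lines run from the lowest to the highest cell. *Acat2* and *Sc4mol* climb to 1.85 and 1.80 at 216 h, within a spread between cells of 0.669 and 0.400.

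Other genes of sterol and lipid handling went both ways. From a list of 50 such genes, 17 rose and 12 fell among 47 tested in the SFEB populations, against 35.5% and 27.4% of all genes, which is near the list's own shares. In the adherent cells 22 rose and 7 fell among 45, against 35.8% and 24% of all genes. In WT E14 cells at day 4, 13 rose and 4 fell among 42, against 15.5% and 10.3%. In the adherent and WT E14 cells the rising share of the list was above that of all genes, which was not tested. *Cpt1a*, which brings fatty acids into mitochondria for oxidation, fell in the SFEB populations (slope -0.28 ± 0.06 per 24 h), in the adherent cells (-0.34 ± 0.09) and in WT E14 cells (log2 fold change -2.32 ± 0.76, adjusted p = 0.0436).

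*Acadm*, a mitochondrial acyl-CoA dehydrogenase, fell in the SFEB populations and adherent cells (slopes -0.17 and -0.17 per 24 h) and in WT E14 cells (log2 fold change -1.24). *Acacb*, the carboxylase at mitochondria whose product restrains *Cpt1a*, fell as well, by 0.20 per 24 h in SFEB culture and by 0.15 in the adherent cells. *Fabp3* fell in SFEB culture (-0.18), *Apoe*, the main cholesterol carrier of brain, in the adherent cells (-0.18), and *Elovl7*, an elongase, in WT E14 cells (-1.36). The steepest rises were those of the fatty acid binding proteins *Fabp7*, a marker of radial glia (1.01 per 24 h in SFEB and 1.08 in adherent cells), and *Fabp5* (0.44 and 0.36), with *Elovl2* (0.34 in SFEB) and *Cyp46a1*, the neuronal cholesterol hydroxylase (0.33 in adherent cells). In WT E14 cells *Soat1*, which esterifies cholesterol, rose by 2.41 on the log2 scale and *Acsl4*, an acyl-CoA synthetase, by 2.07.

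Some of these levels could hold reads of other genes. The libraries did not mark strand, and in GENCODE M1 *Fdft1* overlaps *Ctsb* and *Srebf1* overlaps *Rai1* on the opposite strand. *Acat2* has a near copy in *Acat3*, and *Scd1* and *Scd2* are alike in sequence, so reads could be split between them.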

How the data were processed

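R1 mESC populations, single cells and E14 cells were profiled by single-end RNA-seq from unstranded Nextera XT libraries. The submitters' processing notes name TopHat2 2.0.8b and Cufflinks 2.1.1, on mm9 and, for E14, mm10. The published methods name earlier versions of both programs, and which versions made the values used here was not settled. The authors deposited FPKM for the adherent and E14 tables, which are used as given. The SFEB population table was deposited by the authors as FPKM after a ComBat batch adjustment, that is, a score that can be negative, and 1256 of 297902 values below 0 were set to 0. The single cells were deposited as log10(RPKM + 1). Depth is unknown, so no counting error can be given.

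The members and gene lists were chosen with earlier results of these data known. Values were put on a log2(FPKM + 1) scale, which understates the change of low genes, and genes with at least 1 FPKM in at least 3 samples were tested with limma 3.58.1 (R 4.3.3, trended prior variance) on the whole table, with Benjamini-Hochberg adjustment over all genes. SFEB and adherent courses were fitted as a line in time, in units of 24 h, and as a natural spline with 3 degrees of freedom, with a term for the SFEB series. The E14 fit held all 4 groups of 3 libraries. Single cells were averaged over the 8 cells of a time point. The tables were normalized separately and tested apart.

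Same-numbered E14 libraries deviated together in WT between days (r of 0.199, 0.220 and 0.224) and between KO and WT at day 4 (0.136, 0.258 and 0.240), not in the other comparisons. Members were named by role, and from the list of 50 related genes the 3 with the largest called rises and falls in each course and in WT at day 4 (some results on this list are not reported here) and, chosen after their values were seen, repeats of named genes in other tables. The routines were tested on simulated data. Pseudocount, filter, normalization, prior variance, series, block and left-out samples were varied.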

Additional observations from a re-analysis of the deposited data

Results flagged for a closer look

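In 48 groups of 8 single cells, the means of 4 gene groups and 2 genes at 8 time points, an isolated extreme cell was looked for with Dixon's ratio, which chance passes in about 1 of 20 groups, and 2 groups passed. Among the 38 h cells, the cell of replicate 6 had a mean log10(RPKM + 1) of 0.907 over the 8 fatty acid genes and lay apart from the other cells of that time. Among the 9 h cells, the cell of replicate 13 had 0.622 for *Sc4mol*, while 5 of the 8 cells were at 0.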

How the results depend on the processing

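The SFEB count of 21 rising genes was between 17 and 21 under the settings tried except one, and the adherent count of 20 was between 18 and 25 with the same kind of exception. Without the samples before 22 h, 12 SFEB genes rose and 1 fell (40.5% and 29.8% of all genes), and without those before 20.5 h 13 adherent genes rose (33.7% of all genes). *Acaca* and *Elovl6* turned to slopes of -0.014 and -0.065 without the early SFEB samples, and in the first series alone 1 gene fell (24.7% of all genes). In WT E14 cells 7 genes rose and 0 fell with no filter on low values (10.5% and 6.6% of all genes), 7 rose in a model of the compared groups only (13.8%), and leaving out 1 library gave 6 to 19 rising and 0 to 1 falling genes. In the KO 1 gene fell with a filter of 5 FPKM (9.16% of all genes), 1 with quantile normalization (9.59%) and 2 in a model of the compared groups only (5.91%), and leaving out 1 library gave 3 to 9 rising and 0 to 1 falling genes. With the replicate number as a block 17 genes rose in WT, as given above, and 12 in the KO (17.5% and 13.8% of all genes), whose numbers did not pair the samples (r of 0.0239, 0.0899 and 0.00112). The block changed no call of a synthesis gene between KO and WT. In single cells 0 genes rose with the log10 of the mean, with the median, without 216 h or without 9 h (0% to 0.0611% of all genes), and 4 rose without the cell of replicate 16 at 216 h (2.7% of all genes). With a limit of 1.5-fold, 4 SFEB genes were lower at 8 h (8.69% of all genes), 2 adherent genes higher at 8.5 h (7.38%), and 21 SFEB and 13 adherent genes higher at 216 h (15.7% and 9.7%), while a pseudocount of 0.1 made 1 SFEB gene lower at 8 h (5.47%). Over all genes, 3665 fell in SFEB culture and 2276 in the parallel series alone, and 1443 rose in the KO and 941 with the 5 FPKM filter. Leaving out 1 library moved the rises and falls of all genes from 1904 and 1262 to 1106 to 1678 and 711 to 1267 in WT, and from 1443 and 927 to 636 to 1857 and 405 to 1206 in the KO. Between KO and WT 1 gene was higher and 8 lower at day 4 (0 to 8 and 4 to 18 over the alternatives and fits without 1 library), and 5 and 16 at day 0 (1 to 18 and 1 to 110, the highest of both without WT day 0 replicate 1). In single cells 191 rose and 122 fell (0 to 309 and 0 to 179). The cause of these shifts was not tested. Unknown depth, 1 library per time point and 3 per E14 group limit what could be seen.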

Other observations

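Some gene levels moved in single libraries in ways no comparison of the groups uses. At 2 h in SFEB culture 5 of 6 mevalonate genes were above their 0 h mean while all 8 fatty acid genes were below it, with medians of 0.36 and -0.74 on the log2 scale. *Fdps* stood at 152 FPKM there and *Fasn* at 47.2. In the adherent cells at 2.5 h, 14 of the 29 genes had their lowest value of the course, against 11% of all genes. In single cells *Fads2* was above 0 in 1 of 8 cells at 106 h (mean 0.0093) and had a mean of 1.07 ± 0.903 at 216 h.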
